A study of Mus musculus with 8 samples.

Results

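Klrg1-positive effector CD8 T cells were described among the CD45+ cells of mouse B16-OVA tumors. They were taken by a gate on UMIs (unique molecular identifiers, 1 for each captured RNA molecule). A cell needed a UMI of Cd8a or Cd8b1 and a UMI of a CD3 chain, with none of Cd4, Lyz2, Cd79a or Ncr1, which mark CD4 T cells, myeloid cells, B cells and NK cells. Within this CD8 gate, a member had at least 1 UMI of Klrg1. Cells with 2 or more UMIs of Gzmk, with any of the proliferation gene Mki67 or of the regulatory T cell factor Foxp3, with 3 or more of Gzmc to Gzmg, or with 3 or more of the interferon-induced genes Ifit1 and Ifit3 were left out. Of 15700 barcodes, 12828 passed the cell filter, 4673 lay in the CD8 gate and 87 were members, 1.86% of the CD8 gate (95% exact interval 1.49 to 2.29). Klrg1, Cd8a, Cd8b1, the CD3 chains and the excluded genes chose the cells, so their values are given as description only.

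The study asked how CD8 tumor-infiltrating lymphocytes (TILs) differ between forms of adoptive T cell transfer (ACT). Female C57BL/6 mice with subcutaneous B16-OVA melanoma, a line made to express ovalbumin, received OT1 CD8 T cells, which carry a transgenic receptor for an ovalbumin peptide, in 2 infusions and without lymphodepletion. CD45+ cells were sorted from tumors pooled over several mice, with CD8 TILs enriched, and single-cell 5′ libraries (10x Genomics) were made, 1 per condition and day. The 8 libraries were untransduced OT1 cells at days 5 and 12, OT1 cells secreting PD1d and IL-2v at day 12, OT1 cells secreting PD1d and IL-33 at day 12, a mixture of both engineered cells in equal parts, called PD1d/IL-2v/IL-33 ACT or the mixture, at days 5, 12 and 26, and non-treated tumors at day 5. PD1d is the mouse PD-1 ectodomain fused to a human IgG4 Fc and acts as a decoy for PD-1 ligands. IL-2v is an IL-2 variant that binds the β and γ chains of the IL-2 receptor but not the α chain, and IL-33 is an alarmin that signals through ST2, the product of Il1rl1. All genes were delivered by retrovirus into the OT1 cells of CD45.1+ C57BL/6 donors. The CD8 gate held transferred and endogenous cells, which these files do not tell apart. Each condition and day had a single library, so values of conditions are compared without a test, and their 95% intervals cover counting error only. The libraries held 1387032 (untransduced, day 12) to 24917112 UMIs (PD1d/IL-2v/IL-33, day 26). They carried 5 run identifiers, with each pair of libraries compared below on different ones, so that run and condition cannot be told apart there. Of the members, 1 had a barcode sequence that another library held too.

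KLRG1 is an inhibitory C-type lectin receptor on T cells and NK cells that binds E-cadherin and related cadherins. On CD8 T cells it is best known from acute infection, where it marks short-lived effector cells with low IL-7 receptor. The factors T-bet (Tbx21) and ZEB2 drive that program, and such cells often circulate through blood and vessels, with high CX3CR1, S1PR5 and granzymes A and B.

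The 5 marker genes given for these cells were Klrg1, S1pr5, Gzma, Itgax and Cx3cr1, and they were chosen with earlier results of these data known. Gzma, which encodes a granule tryptase, was found in 53 of 87 members, 60.9%. The fractalkine receptor gene Cx3cr1 was found in 22 members, 25.3%. Itgax, which encodes the integrin CD11c, was found in 20 members, 23.0%. The sphingosine-1-phosphate receptor gene S1pr5 was found in 14 members, 16.1%. Of the 4 markers other than Klrg1, 24 members had none, 26 had 1, 29 had 2, 7 had 3 and 1 had all 4. At least 1 was found in 72.4% of members (61.8 to 81.5) and in 33.6% of the 1896 Klrg1-negative cells that passed every other part of the gate (31.5 to 35.8). The members were the shallower class, with a median of 4721 UMIs against 6083. After each cell was thinned to 2000 UMIs, S1pr5 was found in 11.5% of members, in 0.686% of Klrg1-negative cells and in 0 of 98 B cells. Gzma was then found in 54.0% of members, in 12.8% of Klrg1-negative cells and in 4.08% of B cells, Cx3cr1 in 16.1%, 4.59% and 0%, and Itgax in 11.5%, 3.22% and 1.02%. Thinned Gzmk-high cells, with 2 or more Gzmk and 0 Klrg1 UMIs, held Gzma in 23.8%, Cx3cr1 in 5.52%, Itgax in 6.22% and S1pr5 in 0.707%. Thinned NK cells held them in 91.3%, 1.77%, 24.3% and 6.26%, so Gzma and Itgax were more frequent there than in members. Itgax was also found in 16.3% of thinned monocytes and macrophages. B cells had a median of 3594.5 UMIs before thinning, and 7.14% of them held Gzma at that depth. The label thus rests on Gzma in most members and on Cx3cr1, Itgax and S1pr5 in a minority, so that 87 cells of mixed marker content were grouped by Klrg1.

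Promoters of markers are shown because the genes of ZEB2 and KLF2 were called higher in the same cells. ZEB factors bind E-boxes of the CACCTG type and KLF factors bind CACCC boxes. The sequences are those of RefSeq (build GRCm38.p6), from 250 bases before to 50 bases after the start of the gene, 5′ to 3′ on the strand of the gene. 4 of the 5 markers had an entry. Capitals mark CACCTG or CAGGTG, and CACCC or GGGTG, on either strand, and no match overlapped another.
Gzma, chr13:113100932-113101231, minus strand: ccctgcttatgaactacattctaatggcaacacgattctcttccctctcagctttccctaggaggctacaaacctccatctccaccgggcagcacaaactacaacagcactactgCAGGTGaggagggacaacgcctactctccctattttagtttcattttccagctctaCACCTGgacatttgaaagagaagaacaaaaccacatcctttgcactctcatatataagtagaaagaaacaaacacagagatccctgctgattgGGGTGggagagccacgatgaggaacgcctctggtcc
Cx3cr1, chr9:120068247-120068546, minus strand: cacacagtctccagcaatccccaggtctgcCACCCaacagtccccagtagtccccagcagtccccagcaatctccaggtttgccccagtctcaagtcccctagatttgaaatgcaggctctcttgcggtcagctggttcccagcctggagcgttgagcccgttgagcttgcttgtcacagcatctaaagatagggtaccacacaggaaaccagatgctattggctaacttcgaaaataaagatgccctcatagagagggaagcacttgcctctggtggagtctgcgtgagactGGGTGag
S1pr5, chr9:21248394-21248693, minus strand: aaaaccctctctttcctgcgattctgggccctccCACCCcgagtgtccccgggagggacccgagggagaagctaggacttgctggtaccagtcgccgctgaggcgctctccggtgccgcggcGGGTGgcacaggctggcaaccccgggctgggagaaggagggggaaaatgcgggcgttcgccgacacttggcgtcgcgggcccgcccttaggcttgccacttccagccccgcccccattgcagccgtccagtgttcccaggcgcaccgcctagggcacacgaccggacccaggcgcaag
The Gzma window held 2 matches of the E-box and 1 of the CACCC box. The Cx3cr1 and S1pr5 windows each held 2 of the CACCC box and 0 of the E-box. The Itgax window held 0 of either. Of 32851 promoters of the same length, 20.2% held the E-box letters and 57.5% the CACCC letters, so that such matches are common.

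Members were found in 7 of 8 libraries. The libraries held 37 to 2152 CD8 cells, so counts of members follow library size in part and are given with shares. PD1d/IL-2v/IL-33 ACT gave 13 of 485 CD8 cells at day 5 (2.68%, 1.43 to 4.54), 28 of 697 at day 12 (4.02%, 2.69 to 5.75) and 28 of 2152 at day 26 (1.30%, 0.866 to 1.88). PD1d/IL-33 ACT gave 10 of 355 cells at day 12 (2.82%, 1.36 to 5.12). PD1d/IL-2v ACT gave 4 of 469 (0.853%) and untransduced ACT 3 of 408 at day 5 (0.735%). The interval at day 12 of the mixture lay above those of PD1d/IL-2v ACT (0.233 to 2.17), of untransduced ACT at day 5 (0.152 to 2.13) and of its own day 26. The intervals of days 5 and 26 of the mixture and of PD1d/IL-33 ACT overlapped those of PD1d/IL-2v and untransduced day 5 ACT. As a share of only the cells passing every exclusion, the intervals of day 12 (4.99 to 10.6) and day 26 (2.97 to 6.36) overlapped, and with at least 2 Klrg1 UMIs those of day 12 (0.997 to 3.17), PD1d/IL-2v ACT (0.00540 to 1.18) and untransduced ACT at day 5 (0.0594 to 1.76) did. With the cell filter of the study's later experiment, those of day 12 (2.79 to 6.63) and untransduced ACT at day 5 (0.240 to 3.36) overlapped too. As a share of cells passing every exclusion, PD1d/IL-33 ACT had the highest value at 9.01% (4.41 to 15.9), against 7.43% at day 12 of the mixture. The untransduced day 12 library had 0 of 37, which allows a share of up to 8.11% by a limit of 3 counts and 9.49% by the exact interval, and the non-treated library 1 of 70 (1.43%), so neither could be placed against the others at this depth. Thinning to 2000 UMIs, where the gate took 111 of 4611 cells, gave 4.69% at day 12, 2.07% at day 26 and 2.36% at day 5 of the mixture, 4.48% for PD1d/IL-33 ACT and 1.04% for PD1d/IL-2v ACT.

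**Figure D1:**
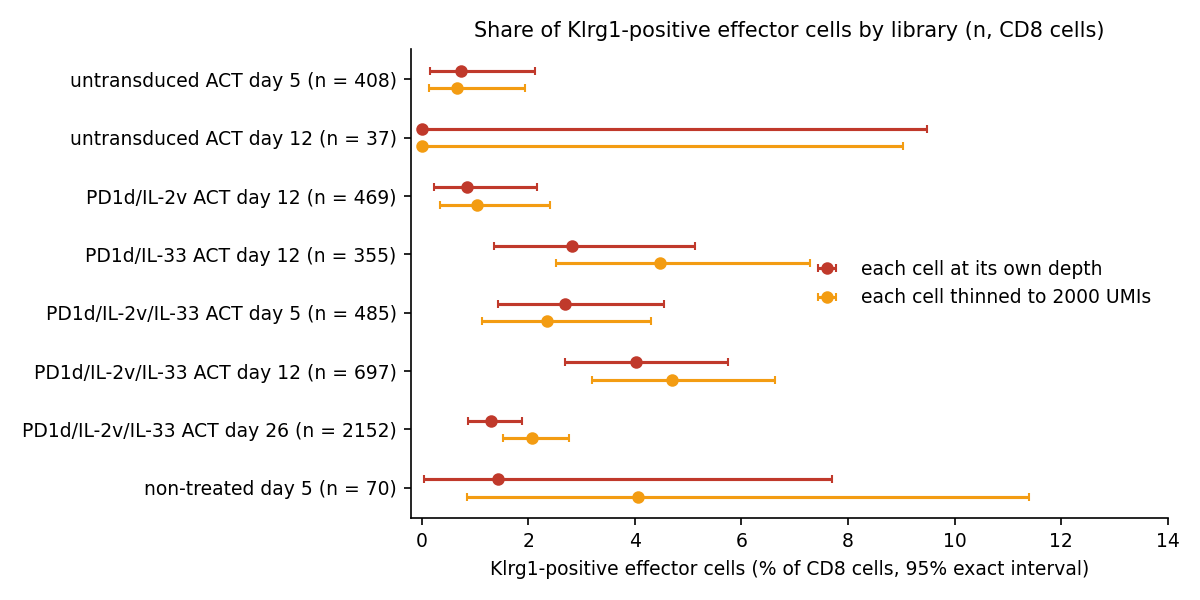
Share of Klrg1-positive effector cells among CD8 cells in each of the 8 libraries (x axis, percent; points, shares; bars, 95% exact binomial intervals, counting error only), at each cell's own depth and after thinning to 2000 UMIs. The day 12 library of the mixture had the highest share at 4.02%, and the untransduced day 12 and non-treated libraries had the widest intervals.

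The exclusions, and above all that on Gzmk, decided how many Klrg1-bearing cells were members. Klrg1 was found in 509 CD8-gate cells, 10.9%, of which 17.1% were members. 358 of the 509 held 2 or more Gzmk UMIs, and for 278 that was the only reason for being left out. Mki67 touched 77, Foxp3 29, Gzmc to Gzmg 23 and the interferon genes 21. Before these exclusions Klrg1 was found in 19.2% of CD8 cells after PD1d/IL-33 ACT and in 15.2%, 8.45% and 11.3% at days 12, 5 and 26 of the mixture, against 6.61% after PD1d/IL-2v ACT and 3.19% in untransduced ACT at day 5. The intervals of the PD1d/IL-33 library (15.2 to 23.6) and of the mixture at day 12 (12.6 to 18.1) overlapped before the exclusions, as they did after them. The interval of the mixture at day 26 before the exclusions (10.03 to 12.8) reached that of day 12 too. No Klrg1 UMI was found in 98 B cells and it was found in 0.366% of 1093 monocytes and macrophages, types that should lack it.

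Cells just inside and just outside the thresholds were compared as a description. Among members, 51 had 1 Klrg1 UMI, 21 had 2, 10 had 3, 4 had 4 and 1 had 5. The Gzma level in CPM (a gene's UMIs over all UMIs summed over the cells, as counts per 1000000) was 416 at 0 Klrg1 UMIs, 1490 at 1, 5014 at 2 and 4047 at 3 or more. Zeb2 stood at 32.8, 79.7, 236 and 148 CPM in the same classes. Tcf7, the gene of the memory factor TCF1, stood at 147, 52.0, 16.9 and 46.1 CPM. Members with a single Klrg1 UMI thus lay between the other classes for these 3 genes. These levels pool all libraries, and the classes drew on them unevenly. Untransduced ACT at day 5 gave 253 Klrg1-negative cells and 3 members, and PD1d/IL-2v ACT gave 298 and 4. At the Gzmk threshold the step was smaller, as members with 1 Gzmk UMI had 2360 CPM of Gzma and 80.6 of Cx3cr1, and Klrg1-positive cells with 2 Gzmk UMIs, just outside, had 2426 and 139 CPM. S1pr5 differed there, with 37.6 CPM inside and 8.97 outside. At the threshold on Gzmc to Gzmg, the 8 members with 1 or 2 such UMIs had 0 CPM of Cx3cr1 and of S1pr5 and 100.3 of Klf2, against 119, 60.6 and 581 CPM in the 79 members with none.

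Markers of other cells were summed to see what else the gate could hold. Cd8a was found in 9 of 10 members after PD1d/IL-33 ACT and in 13 of 13, 27 of 28 and 26 of 28 at days 5, 12 and 26 of the mixture, and none of 3 gamma delta T cell markers found in the files had a UMI in any member. The gate required a UMI of Cd8a or Cd8b1, so the Cd8a shares follow in part from selection and are description only. Of 11 monocyte and macrophage markers, 8 were at 0, and the 87.3 CPM of the list (124 in Klrg1-negative cells) came mostly from Ctss. The NK list of 8 genes summed to 1565 CPM against 1890 in Klrg1-negative cells, of which Gzmb gave 643 of 807 UMIs in members. Xcl1, at 182 CPM in members and 1274 in Klrg1-negative cells, was the most abundant gene of the list in the latter. Tyrobp, the signaling adaptor DAP12 of NK cells, stood at 64.0 CPM in members and 26.1 in Klrg1-negative cells, and was found in 9.20% of members and 7.65% of Klrg1-negative cells. Klrb1c, which encodes NK1.1, stood at 27.2 against 10.6 CPM. Fcer1g, another adaptor gene, stood at 62.1 against 73.9 CPM, and Klrd1, for CD94, at 320 against 467 CPM. The part of NK-type T cells in the results was not tested, except that each count of calls is given below also without cells holding Tyrobp or Fcer1g. Of the B cell list 1 UMI was found, and of the melanoma list 1. The list of CD4 and regulatory T cells summed to 353 CPM against 434, with Ctla4 as its most abundant gene and none of its 5 genes at 0. The type 2 lymphoid list (Gata3, Il13, Il5, Areg, Rora, Calca and Il1rl1) summed to 809 CPM against 193, but of its 417 UMIs a single day 5 cell gave 122 of Il13, 74 of Il5 and 70 of Areg. That cell held 11 UMIs of Cd8b1, 3 of Cd8a and 4 of Klrg1. A day 26 member held 10 UMIs of Gata3 and 4 of Il1rl1 with 1 of Cd8b1 and 0 of Cd8a. Il1rl1 had only 10 UMIs in all members.

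Against Klrg1-negative CD8 cells, the members had higher levels of 3 granule genes (Gzma, Gzmb and Fasl), of Cx3cr1 and of 7 terminal effector genes, and lower levels of the memory genes Tcf7 and Il7r and of the chemokine gene Xcl1. Most tested genes of the granule, trafficking and memory lists were not called. When any 1 library was left out, Gzma, Cx3cr1, Klf2, Ccl5, Xcl1 and Tcf7 kept their calls in all 4 fits, and 8 of the 36 genes, among them Fasl, Il7r, Itgb2 and H2afz, kept theirs in none. The classes differed only in Klrg1 by the gate. A count of 0 Klrg1 UMIs does not show that a cell lacked Klrg1. After thinning to 2000 UMIs, Klrg1 was found in 59.8% of members. The Klrg1-negative and Gzmk-high classes can thus hold cells whose Klrg1 was missed. UMIs were summed per library and class and tested with the library as a block in edgeR's quasi-likelihood test with Benjamini-Hochberg adjustment. This was possible in the 4 libraries with at least 10 cells of both classes, namely PD1d/IL-33 ACT at day 12 (10 members, 39126 UMIs) and the mixture at days 5 (13 members, 103266 UMIs), 12 (28 members, 175713 UMIs) and 26 (28 members, 155288 UMIs). 3 of the 4 are 1 treatment at different days, so the p-values measure how a difference repeated over these pooled libraries. Of 3957 genes tested, 36 were called at an adjusted p under 0.05 (0.91%), 21 higher (0.531%) and 15 lower (0.379%). Of the 36, 11 were ribosomal protein genes. The balance of directions depended on the setting. Scaling by library totals gave 35 higher and 10 lower, and thinning all cells to 2000 UMIs gave 24 and 66. With at least 2 Klrg1 UMIs it was 18 and 82, and without members holding at least 50 UMIs of Ccl1 or Il13 it was 36 and 75.

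Gzma stood at 3910 CPM in members after PD1d/IL-33 ACT and at 3079, 2954 and 2557 CPM at days 5, 12 and 26 of the mixture. In Klrg1-negative cells the levels were 196, 1518, 375 and 186 CPM. Every member sum lay above every Klrg1-negative sum, and Gzma was found in 8 of 10, 10 of 13, 16 of 28 and 15 of 28 members. Its log2 fold change of 2.87 ± 0.33 (SE) was the largest of the called genes (adjusted p = 0.000158, higher in 4 of 4 libraries). The Klrg1-negative level was highest at day 5, and without that library the change was 3.50. Gzmb, the granzyme that starts apoptosis through caspases, stood at 2096, 3118, 751 and 580 CPM in members and at 381, 1578, 644 and 180 in Klrg1-negative cells (log2 fold change 1.16 ± 0.22, adjusted p = 0.0171). At day 12 of the mixture the 2 Gzmb levels were close, and the call was lost without the PD1d/IL-33 library (0.84, adjusted p = 0.198). Fasl, a death ligand, was higher by 0.86 ± 0.20 (adjusted p = 0.0408), with 281, 116, 176 and 264 CPM against 109, 82.1, 98.7 and 122. These 3 genes were the only called members of the 14 tested granule and cytotoxic genes (median log2 fold change 0.20 over the list, -0.01 over all genes tested). DESeq2 called 2 of the 14. Nkg7, found in 98.9% of members and 97.4% of Klrg1-negative cells, was not called (0.19, adjusted p = 0.587), and neither was the perforin gene Prf1 (0.14, adjusted p = 0.953), Srgn (0.10) or Ctsw (-0.32).

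Cx3cr1, whose product guides effector cells along fractalkine-bearing vessels, stood at 153, 48.4, 120 and 122 CPM in members in the same order of libraries. The Klrg1-negative levels were 36.2, 28.9, 21.6 and 26.0 CPM. The classes did not overlap, with a log2 fold change of 1.95 ± 0.30 (adjusted p = 0.00482), although the member levels rest on 6, 5, 21 and 19 UMIs. Zeb2 stood at 102, 174, 68.3 and 180 CPM against 43.8, 67.4, 23.8 and 30.2 (1.73 ± 0.28, adjusted p = 0.00482). Klf2, a factor that induces the lymphoid exit receptor gene S1pr1, stood at 588, 397, 154 and 856 CPM against 162, 151, 77.2 and 514 (1.05 ± 0.17, adjusted p = 0.00482). Each library had the higher Klf2 level in members, but the range over days was wider than the gap between classes, so the groups overlapped. S1pr1 itself was not called (0.31, adjusted p = 0.844). Itgax, at 76.7, 19.4, 91.1 and 45.1 CPM against 30.5, 19.8, 18.7 and 17.6, was not called either (1.47, adjusted p = 0.0865) and was higher in 3 of 4 libraries. S1pr5 was too low to be tested, at 1, 3, 6 and 12 UMIs in members (25.6, 29.1, 34.1 and 77.3 CPM) against 0, 1.70, 0 and 4.76 CPM. Since Gzma, Cx3cr1, Itgax and S1pr5 were given as markers, their differences are not independent evidence of the label.

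**Figure D2:**
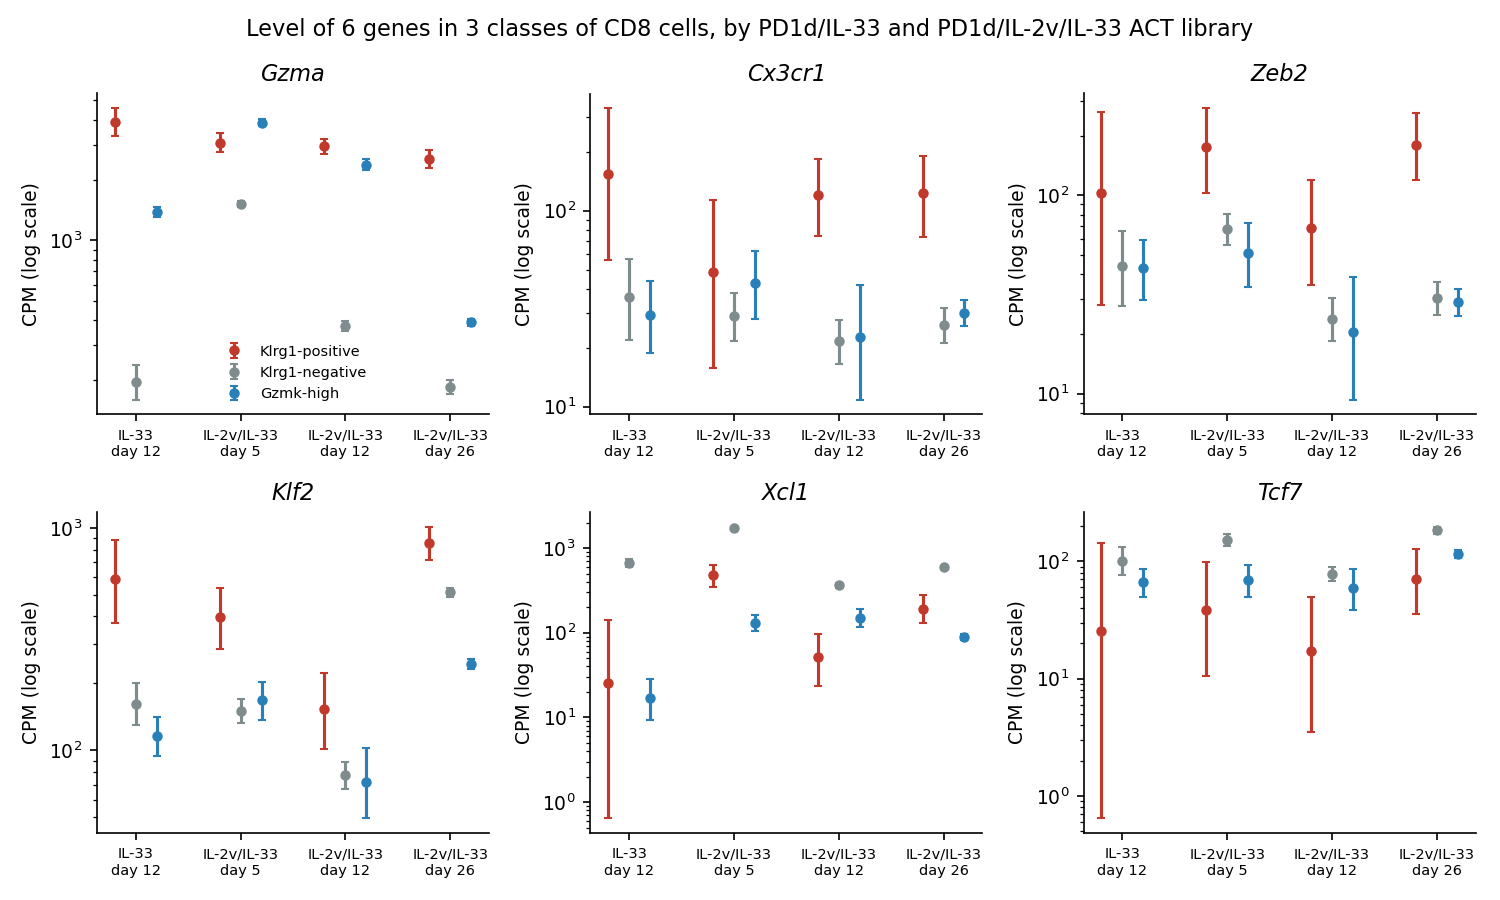
Levels of Gzma, Cx3cr1, Zeb2, Klf2, Xcl1 and Tcf7 in Klrg1-positive, Klrg1-negative and Gzmk-high CD8 cells of the 4 libraries with at least 10 members (y axes, CPM of summed UMIs on a log scale; bars, 95% exact Poisson intervals, counting error only). Gzma and Cx3cr1 lay higher and Xcl1 and Tcf7 lower in Klrg1-positive than in Klrg1-negative cells in all 4 libraries.

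Of the 14 tested genes of the terminal effector list, 7 were called higher and none lower, with a median log2 fold change of 0.67 against -0.01 over all genes tested. Besides Zeb2 and Klf2 these were Klre1, an NK-type receptor gene (1.25 ± 0.25, adjusted p = 0.0194), the chemokine gene Ccl5 (1.07 ± 0.17, adjusted p = 0.00482), Lgals1 for galectin-1 (0.90 ± 0.15, adjusted p = 0.00482), the small GTPase gene Rap1b (0.74) and Itgb2, the β2 integrin chain that pairs with CD11c and LFA-1's α chain (0.65). Ccl5 stood at 18172, 8880, 15258 and 16853 CPM in members and at 10008, 6949, 3711 and 6319 in Klrg1-negative cells. It was found in all but 1 member of these libraries. When 1 library was left out at a time, Ccl5 and Klf2 kept their calls in all 4 fits. Zeb2, Klre1 and Lgals1 kept theirs in 3, Rap1b in 1 and Itgb2 in none. Tbx21, the gene of T-bet, was not called (0.26 ± 0.37, adjusted p = 0.899), and it was found in 32.2% of members and 31.4% of Klrg1-negative cells. Ly6c2 (0.09), Itgb1 (0.03) and Id2 (0.32) were not called either. The lists were chosen with earlier results of these data known, so their counts describe the cells and do not test the label.

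Among 21 trafficking and residency genes, 4 were called higher and 1 lower (median log2 fold change 0.14, -0.01 over all genes tested). Over all 3957 genes tested, 21 were called higher (0.531%) and 15 lower (0.379%). The higher genes were Cx3cr1, Klf2, the chemokine receptor gene Ccr2 (1.21 ± 0.25, adjusted p = 0.0247) and Cxcr4, the receptor for CXCL12 (0.92 ± 0.17, adjusted p = 0.0171). Without 1 library at a time, Ccr2 kept its call in 2 of 4 fits (adjusted p up to 0.326, edgeR) and Cxcr4 in 1 (up to 0.214). Ccr2 was higher in 3 of 4 libraries, with 77.5 CPM in members and 81.0 in Klrg1-negative cells at day 5 of the mixture. Outside the lists, the actin crosslinker gene Flna rose by 0.97 ± 0.18, Dusp5, a phosphatase that acts on ERK, by 0.82 ± 0.16, Ifitm10 by 1.29 ± 0.29 and Gem, a small GTPase gene, by 1.44 ± 0.30 (adjusted p = 0.0132, 0.0221, 0.0408 and 0.0247, edgeR). With 1 library left out at a time, Flna, Dusp5 and Gem kept their calls in 2 of 4 fits and Ifitm10 in 1 (adjusted p up to 0.588). For Gem, 33 of the 46 UMIs of day 5 came from 1 cell, and without the 3 members that held at least 50 UMIs of Ccl1 or Il13 it was at 0.77 and not called (adjusted p = 0.109). Of 16 calcium-binding, annexin and cytoskeletal genes, Lgals1 and Emp3 were called higher. Of 8 cell cycle genes, the histone gene H2afz was called higher (0.57 ± 0.13) although Mki67-positive cells had been left out of both classes, and Hmgb2 was not called (0.63, adjusted p = 0.0661). Actb (0.50) and Tmsb4x (0.41), for actin and an actin-binding peptide, were higher too.

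Xcl1, a chemokine for cross-presenting dendritic cells, was the lowest of the called genes. It stood at 25.6, 475, 51.2 and 193 CPM in members and at 667, 1728, 364 and 594 CPM in Klrg1-negative cells, lower in 4 of 4 libraries (-2.19 ± 0.22, adjusted p = 3.96e-05). It was found in 1 of 10, 2 of 13, 5 of 28 and 4 of 28 members, and 47 of the 49 UMIs at day 5 came from 1 cell. Without the 3 members high in Ccl1 or Il13 the change was -4.08. Of 11 memory and naive genes tested, 2 were called lower and none higher by edgeR (median -0.59), and DESeq2 called 1 of the 11. Tcf7 stood at 25.6, 38.7, 17.1 and 70.8 CPM in members against 101, 151, 77.9 and 183 (-1.79 ± 0.28, adjusted p = 0.00482). Il7r, the IL-7 receptor α chain, stood at 25.6, 9.68, 22.8 and 135 CPM against 82.0, 54.4, 57.4 and 256 (-1.25 ± 0.28, adjusted p = 0.0408). The member levels of these 2 genes rest on 19 and 27 UMIs in all, and each was lower in every one of the 4 libraries. Without 1 library at a time, the adjusted p of Il7r was 0.077 to 0.207 (edgeR). Cd28 (-0.04), Bcl2 (-0.51) and Satb1 (-0.23) were not called. Ltb, for lymphotoxin β, was called lower (-0.86 ± 0.18, adjusted p = 0.0247) but stood higher in members after PD1d/IL-33 ACT (434 against 398 CPM).

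**Figure D3:**
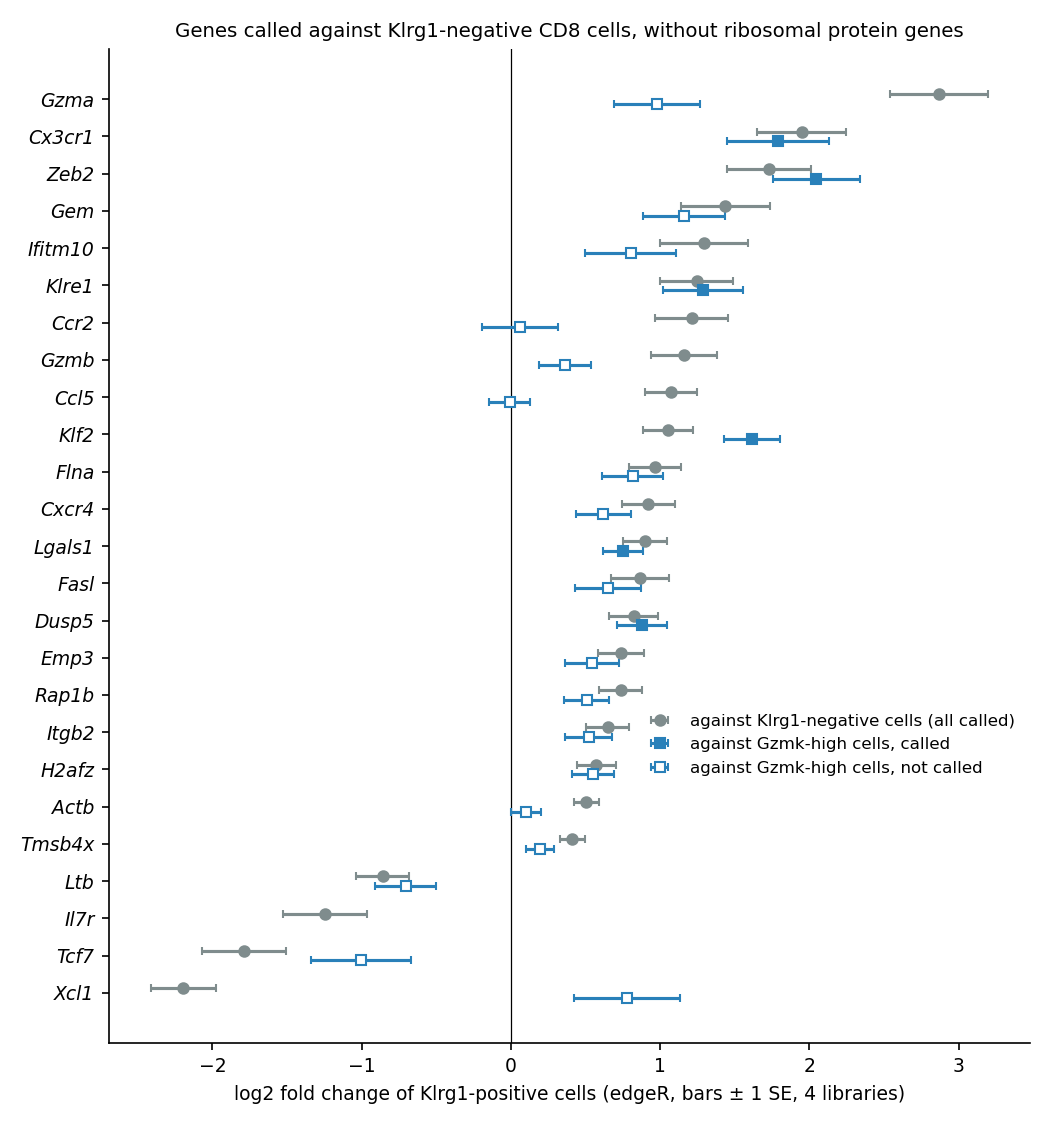
The 25 genes other than ribosomal protein genes called between Klrg1-positive and Klrg1-negative CD8 cells, with their log2 fold change in that comparison and in the comparison with Gzmk-high cells (x axis; bars ± 1 SE, edgeR, 4 libraries; filled squares, called against Gzmk-high cells, open squares, tested and not called). Cx3cr1, Zeb2, Klre1, Klf2, Lgals1 and Dusp5 were called in both, and Xcl1, called lower against Klrg1-negative cells, was not called against Gzmk-high cells (0.78).

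No gene of 14 exhaustion genes tested was called by edgeR in either direction against Klrg1-negative cells, and none by DESeq2, while 6 had an unadjusted p under 0.05 in edgeR. The median was -0.38. The nearest to the threshold was Nr4a1, an early gene of receptor signaling, at 0.79 (adjusted p = 0.0617). Pdcd1, the gene of PD-1, stood at 128, 136, 68.3 and 251 CPM against 212, 198, 204 and 302, lower in 4 of 4 libraries, and was not called (-0.78 ± 0.22, adjusted p = 0.0909). Tox, a factor of exhausted cells, at 51.1, 19.4, 11.4 and 64.4 CPM against 130, 54.4, 35.8 and 92.4, was not called either (-1.09 ± 0.34, adjusted p = 0.149). Of 8 NK-type receptor and adaptor genes only Klre1 was called. Klrd1 (-0.20), Klrc1 (0.39) and Hcst (-0.13) were not. Of 13 cytokine receptor genes Il7r was the only call by edgeR and none was called by DESeq2. The β chain Il2rb, used by IL-2v, was at -0.48 (adjusted p = 0.138). The 13 genes of SHIP and SHP phosphatases and T cell signaling, the phosphatases through which KLRG1 acts among them, and the 9 genes of the BCL2 family gave no call by edgeR or DESeq2, with medians of 0.08 and -0.27 and 1 gene each at an unadjusted p under 0.05. Of 21 transcription factors, Zeb2 and Klf2 were called higher and Tcf7 lower, and of 9 cytokine and chemokine genes Ccl5 higher and Xcl1 lower. In the lists of other cells, no call was made by edgeR or DESeq2 among 4 CD4 and regulatory T cell genes, 3 type 2 genes, 1 monocyte gene and 1 dendritic gene that could be tested, of which 1, 3, 0 and 1 had an unadjusted p under 0.05. Of 3 tested genes of the NK list, edgeR called 2, Gzmb higher and Xcl1 lower, and DESeq2 called 2. At an unadjusted p under 0.05, 395 of 3957 genes passed (9.98%). The 97 ribosomal protein genes had a median of -0.31, 11 were called lower and none higher, and they took 30.7% of UMIs in members and 34.9% in Klrg1-negative cells.

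The count of calls depended on the libraries and cells used. It was 12 without the PD1d/IL-33 library, 14 without day 5 of the mixture, 1 (Gzma) when as many Klrg1-negative cells as members were drawn to match their depth, which also left 1620 genes to test, 90 when all cells were thinned to 2000 UMIs, and 2 (Gzma and Ccl5) without cells holding Tyrobp or Fcer1g, which left 2 libraries. The 36 genes had the sign they have here in each alternative that tested them, while no gene was called in every one. The alternatives share members with the fit that chose these genes, so agreement in sign is description only. Depth matching tested 32 of the 36.

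Gzmk-high CD8 cells had 2 or more Gzmk UMIs and no Klrg1 UMI. Against them, the members had higher Cx3cr1, Zeb2 and Klf2 and lower Tox, while Gzma and Ccl5 were not called. When any 1 library was left out, only Klf2 kept its call in all 4 fits. Zeb2 lost it without day 26 (adjusted p = 0.0681, edgeR) and Tox without the PD1d/IL-33 library (adjusted p = 0.186), while Cx3cr1 and Tigit kept theirs in 1 of 4 fits and Nr4a1 in 2. Of 3646 genes tested in the same 4 libraries, 20 were called by edgeR (0.549%), 16 higher (0.439%) and 4 lower (0.11%). Gzma in Gzmk-high cells stood at 1383, 3876, 2390 and 391 CPM, so that members were higher in 3 of 4 libraries and lower at day 5 (0.98 ± 0.29, adjusted p = 0.165). The day 5 direction rests on 2 members high in Ccl1 or Il13, which held 3 and 31 of 318 Gzma UMIs. Without them 64600 of 103266 member UMIs were left, and members lay above Gzmk-high cells at day 5 too. Ccl5 stood at 16457, 15118, 11837 and 13150 CPM there (-0.01 ± 0.14, adjusted p = 1). None of 13 granule genes was called by edgeR or DESeq2 (median 0.03), and 6 had an unadjusted p under 0.05 in edgeR. The same held for 8 memory and naive genes, 4 of which had an unadjusted p under 0.05, and for 6 cytokine and chemokine genes, 3 of which did. Of 7 cell cycle genes, 13 signaling and phosphatase genes, 9 BCL2 genes and 93 ribosomal protein genes none was called by edgeR. Gzmk itself chose the classes and was not tested.

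Klf2 in Gzmk-high cells stood at 116, 168, 72.4 and 244 CPM, lower than in members in each library (1.62 ± 0.19, adjusted p = 9.54e-05). Zeb2 stood at 42.8, 50.9, 20.4 and 29.0 CPM there, below the lowest level in members (2.05 ± 0.29, adjusted p = 0.00116). Cx3cr1 (1.79 ± 0.34), Klre1 (1.29 ± 0.27), Lgals1 (0.75 ± 0.13) and Dusp5 (0.88 ± 0.17) completed the 6 genes called higher in both comparisons. The comparisons share the member samples and so are not independent. With 1 library left out at a time, Cx3cr1, Klre1 and Lgals1 kept this call in 1 of 4 fits and Dusp5 in 2. The adjusted p of Klre1 was up to 0.528 (edgeR). 3 of 12 cytokine receptor genes were called higher and none lower by edgeR, and DESeq2 called 2 of the 12. Over all genes tested, edgeR called 16 of 3646 higher (0.439%). Il2ra, the IL-2 receptor α chain, stood at 51.1, 252, 34.1 and 58.0 CPM against 8.55, 36.2, 31.7 and 3.87 (2.41 ± 0.50, adjusted p = 0.0274), with 25 of its 43 UMIs in 2 cells of day 5, and the call was lost without that library (2.13, adjusted p = 0.436), without day 26 (1.90, adjusted p = 0.0791) and without the PD1d/IL-33 library (2.39, adjusted p = 0.266). Il12rb2, a chain of the IL-12 receptor, was higher by 1.59 ± 0.33, with 15 of 19 day 5 UMIs in 1 cell. With 1 library left out at a time, Il12rb2 kept its call in 1 of 4 fits (adjusted p up to 0.332, edgeR). Il18rap, a chain of the IL-18 receptor, stood at 204, 155, 154 and 83.7 CPM against 74.5, 83.8, 70.1 and 40.2 (1.07 ± 0.24, adjusted p = 0.0471). No single cell held more than 4 Il18rap UMIs in any library, but its call was lost when any 1 of the 4 libraries was left out (adjusted p = 0.0979 to 0.256, edgeR). Il2ra was also the 1 gene called among 3 tested genes of the CD4 and regulatory T cell list.

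Of 15 exhaustion genes tested against Gzmk-high cells, 2 were called lower and 1 higher by edgeR (median -0.17), and DESeq2 called 1 of the 15. Tox in Gzmk-high cells stood at 198, 88.7, 61.1 and 151 CPM, above the members in each library (-1.72 ± 0.33, adjusted p = 0.0158), and Tigit, a checkpoint receptor gene, at 259, 217, 206 and 308 against 179, 48.4, 68.3 and 206 (-1.10 ± 0.24, adjusted p = 0.0353). Nr4a1 was higher in members, at 281, 475, 262 and 464 CPM against 148, 171, 176 and 92.2 (1.42 ± 0.24, adjusted p = 0.00634). Pdcd1 stood at 272, 238, 181 and 364 CPM in Gzmk-high cells and was not called (-0.88, adjusted p = 0.0614). The remaining calls included Nfkbiz at 1.24 ± 0.26, Nfkbia at 0.89 ± 0.19, the AP-1 gene Junb at 0.69 ± 0.13 and the adhesion receptor gene Adgre5 (CD97) at 0.94 ± 0.21. Furin, a convertase gene, was at 2.03 ± 0.44 and higher in 3 of 4 libraries. The exonuclease gene Isg20 was lower (-1.59 ± 0.36), from 14 UMIs in members. Without the 3 members high in Ccl1 or Il13, 13 of these 20 calls remained. Furin, Gm19585, Il12rb2, Isg20, Nfkbia and Nfkbiz were then not called, and Il2ra was too low to be tested. Without the PD1d/IL-33 library 3 genes were called, and without cells holding Tyrobp or Fcer1g, again with 2 libraries, 3. At an unadjusted p under 0.05, 321 genes passed (8.8%).

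The cells with Gzmc to Gzmg, 87 Klrg1-negative cells of which 62 came from day 12 of the mixture, shared only 1 library with at least 10 members, so no test was made. Pooled over all libraries, Gzma stood at 2838 CPM in members and 1181 in those cells, and Ccl5 at 14811 and 757. Gzmb was the other way round, at 1247 and 2415 CPM, as were Prf1 at 95.1 and 250, Pdcd1 at 159 and 502 and Xcl1 at 182 and 654. Klf2 stood at 516 and 33.2 CPM, Cx3cr1 at 103 and 20.3, and S1pr5 at 52.4 and 0. Tox was low in both, at 38.8 and 13.8. The Gzmc to Gzmg cells were far deeper, with a median of 13204 UMIs against 4721, and these pooled values mix libraries.

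Between days 12 and 26 of the mixture, members kept similar Gzma, Ccl5 and Nkg7 levels while Klf2 and Pdcd1 were higher and Satb1 lower at day 26. A log2 ratio (day 26 to day 12, with 10 CPM added to both) past 1 in either direction was seen for 36 of 789 genes with at least 50 UMIs, 4.56%, of which 24 were higher (3.04%) and 12 lower (1.52%). Each day is 1 library of 28 members, without a replicate check. Klf2 stood at 154 CPM at day 12 and 856 at day 26, a log2 ratio of 2.40 (1.83 to 3.01), and in Klrg1-negative cells the ratio was 2.59 (2.40 to 2.77). Zfp36, for an mRNA-destabilizing protein, had 2.16 (1.31 to 3.07) in members and 1.66 in Klrg1-negative cells, with 26 of the 49 day 26 UMIs in 1 cell. For Klf2 the intervals of members and Klrg1-negative cells overlapped. Pdcd1 went from 68.3 to 251 CPM, 1.74 (0.88 to 2.64), where Klrg1-negative cells had 0.54 (0.40 to 0.69). It was found in 4 of 28 members at day 12 and 11 of 28 at day 26. Satb1, a chromatin organizer gene, went from 330 to 51.5 CPM, -2.47 (-3.47 to -1.53), and in Klrg1-negative cells by -1.32 (-1.49 to -1.16). It was found in 22 of 28 members at day 12 and 8 of 28 at day 26. Odc1 (-1.72), Aes (-1.49), Cxcr4 (-1.38) and Mknk2 (-1.34) were the next lowest, and Gm20400 (1.80) was among the 5 highest. The highest ratio, that of the chemokine gene Ccl1 (4.30), came from a single day 26 cell with 77 of 81 UMIs, and was 0.52 without it. Gzma (-0.21, -0.40 to -0.02), Gzmb (-0.37), Ccl5 (0.14) and Nkg7 (0.22) moved little in members, while Gzma moved by -0.97 and Gzmb by -1.79 in Klrg1-negative cells. Whether members and Klrg1-negative cells differ in these ratios was not tested.

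**Figure D4:**
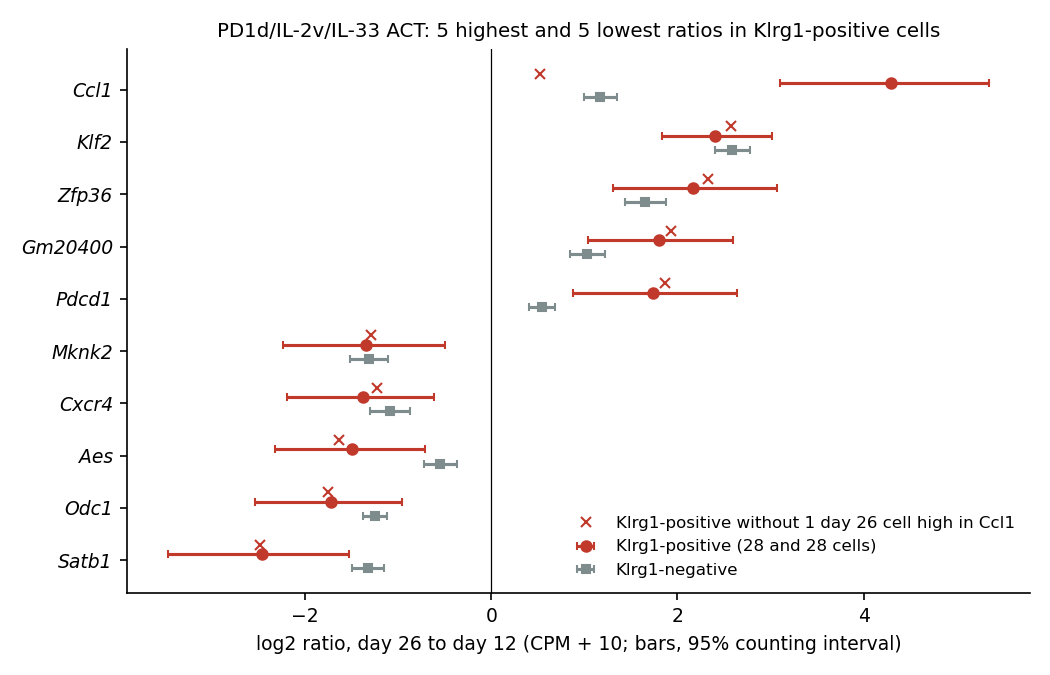
Log2 ratios between day 26 and day 12 of the mixture for the 5 genes with the highest and the 5 with the lowest ratio in Klrg1-positive cells (28 and 28 cells), with the ratio in Klrg1-negative cells (x axis, log2 of CPM + 10; bars, 95% counting intervals; crosses, Klrg1-positive cells without the day 26 cell high in Ccl1). Ccl1 fell from 4.30 to 0.52 without that cell, and Klf2 was 2.40 in Klrg1-positive and 2.59 in Klrg1-negative cells.

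Between days 5 and 12, 37 of 683 genes passed a log2 ratio of 1 in either direction (5.42%), 13 higher (1.9%) and 24 lower (3.51%) at day 12. With TMM factors, which move the median ratio from 0.02 to 0.26, the split was 35 higher and 17 lower. It was 55 and 43 after thinning to 2000 UMIs, and 23 and 18 without members holding at least 50 UMIs of Ccl1 or Il13. The 5 lowest ratios rested on 2 of the 13 day 5 members. One, with 19646 UMIs, held 91 UMIs of Ccl1, 234 of Ccl3, 783 of Ccl4 and 162 of Ifng, inflammatory chemokines and interferon γ, with 18 of Cd8a. The other, with 19020 UMIs, held 122 UMIs of Il13, 74 of Il5 and 70 of Areg, cytokines of the type 2 kind, which had 0 UMIs in members at day 12. Ccl3 was at -6.41 with both cells and at -0.60 without them, and Ccl1, at -5.04 with them, was 1.44 without them. The highest ratios were those of Dusp1 (1.94, 0.84 to 3.13), Nr4a2 (1.52), Gm15564 (1.48), Ly6c2 (1.33) and Hcst, which encodes the adaptor DAP10 (1.27). Without the 2 cells, Ly6c2 was at 0.81 and the other 4 stayed past 1 (1.03 to 1.86). Ly6c2 went from 697 to 1770 CPM in members and by 1.27 in Klrg1-negative cells. Gzma stood at 3079 and 2954 CPM in members (-0.06, -0.26 to 0.14), while in Klrg1-negative cells it went from 1518 to 375 CPM (-1.99, -2.09 to -1.89). The member value at day 5 includes the 2 cells, which held 3 and 31 of its 318 Gzma UMIs. Without them 64600 of 103266 UMIs were left, so the day 5 level is higher without them, and that ratio was not taken. Gzmb was lower at day 12 in both, at -2.04 in members and -1.28 in Klrg1-negative cells.

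At day 12, the mixture was set against PD1d/IL-33 ACT, with 28 and 10 members. 38 of 515 genes passed a log2 ratio of 1 (7.38%), 15 higher (2.91%) and 23 lower (4.47%) after the mixture. With TMM factors the median ratio moved from -0.07 to 0.35, and the split was 57 higher and 4 lower, so directions of small ratios here are relative to that shift. Gzmb was lower after the mixture, at 751 against 2096 CPM (-1.47, -1.87 to -1.06), in members, and higher in Klrg1-negative cells, at 644 against 381 CPM (0.74, 0.53 to 0.95). Klf2 was lower in both classes, at -1.87 in members and -0.98 in Klrg1-negative cells. Hspa1b (-3.42) and Dnaja1 (-1.84), heat shock genes, and Cd82 (-1.40) were the remaining lowest, and 32 of 49 Hspa1b UMIs of the PD1d/IL-33 library came from 1 cell. The highest were Rgs16 (3.08), Plac8 (2.91), Odc1 (2.52), Eef1g (1.88) and 2310036O22Rik (1.68), each with 1 to 6 UMIs in the 10 members of the PD1d/IL-33 library, so their ratios are of low precision (Rgs16, 0.94 to 4.86). Gzma was at 2954 and 3910 CPM (-0.40, -0.66 to -0.14) and Ccl5 at 15258 and 18172 (-0.25, -0.37 to -0.13). Members of PD1d/IL-2v ACT and of untransduced ACT were too few, at 4 and 3 cells, for a comparison of levels.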

How the data were processed

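The authors deposited 1 matrix of UMI counts for 27998 genes and 15700 barcodes of 8 libraries, aggregated, per the submitters' processing notes, with Cell Ranger 2.2.0 on GRCm38. Whether reads were subsampled in aggregation is not given in the sources used here. Libraries were assigned from the titles and the series' design text. Cells were kept with 500 to 6000 genes, 2000 to 40000 UMIs, 5 to 60% ribosomal and under 10% mitochondrial UMIs. Doublets were not called. The members, markers and gene lists were chosen with earlier results of these data known.

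Raw counts were summed per library and class and tested with edgeR 4.0.16 (TMM, filterByExpr, glmQLFit, glmQLFTest, library as a block, Benjamini-Hochberg at 0.05) in libraries with at least 10 cells of both classes. The 20 genes of the gate were left out of calls. DESeq2 1.42.0 was an alternative. Levels are CPM with exact Poisson 95% intervals and shares have exact Clopper-Pearson intervals (scipy 1.17.1). A count of 0 allows up to 3 counts. Ratios of 2 libraries used 10 CPM as a pseudocount and genes with at least 50 UMIs, with an interval from the Poisson error of both counts. All intervals cover counting error only. The fits were checked on simulated counts. Levels had been planned for libraries with at least 20 members and are printed for all 4 tested ones. A comparison with Gzmc to Gzmg cells and 3 ratios with PD1d/IL-2v or untransduced ACT were planned and had too few cells.

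Genes named were called members of a list, the 3 uncalled members with the most UMIs, up to 10 called genes at either end of each comparison with at least 50 UMIs and 1 direction in every library, and the 5 highest and lowest ratios with the list genes. Nr4a1, Tbx21, Prf1, Pdcd1, Tox, S1pr1, Hmgb2, Itgax, Ltb and Furin, and genes of single cells with high counts, were named after their values were seen.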

Additional observations from a re-analysis of the deposited data

Results flagged for a closer look

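Gzmb moved in opposite directions between PD1d/IL-2v/IL-33 and PD1d/IL-33 ACT at day 12, with a log2 ratio of -1.47 in Klrg1-positive cells and 0.74 in Klrg1-negative cells. The difference between the classes was not tested. 2310036O22Rik had 1.68 in Klrg1-positive cells, where the PD1d/IL-33 library held 3 UMIs, and -0.31 in Klrg1-negative cells, again without a test of the difference.

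Klrg1 was also found in NK cells (Ncr1-positive), which no comparison used. It was found in 37.9% of them after PD1d/IL-2v ACT at day 12 (33.2 to 42.8), in 28.5% at day 5 of PD1d/IL-2v/IL-33 ACT (24.8 to 32.5) and in 41.8% at its day 12 (34.7 to 49.0). The lower bounds lay above the upper bound in the non-treated library, which had 11.3% (4.66 to 21.9). The intervals of the other 4 libraries overlapped it, with 27.4% after PD1d/IL-33 ACT, 20% at day 26 of the mixture and 18.8% and 4.88% in untransduced ACT at days 5 and 12. NK cells of the first 3 libraries were deeper, with median UMIs of 6304, 5538 and 7317 against 4418 in the non-treated library, and were not thinned.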

How the results depend on the processing

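The share of Klrg1-positive effector cells depended on the gate. Without the exclusions it was 3.19% in untransduced ACT at day 5, 6.61% after PD1d/IL-2v ACT, 19.2% after PD1d/IL-33 ACT and 8.45%, 15.2% and 11.3% at days 5, 12 and 26 of PD1d/IL-2v/IL-33 ACT. With at least 2 Klrg1 UMIs it was 0.213% after PD1d/IL-2v ACT, 0.845% after PD1d/IL-33 ACT, 1.24%, 1.87% and 0.511% at days 5, 12 and 26, and 0% in non-treated tumors. As a share of cells passing every exclusion it was 9.01% after PD1d/IL-33 ACT and 5.44%, 7.43% and 4.44% at the 3 days. Thinned to 2000 UMIs, day 26 had 2.07%.

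The 36 calls against Klrg1-negative cells became 1 with depth-matched cells, 100 with at least 2 Klrg1 UMIs (2 libraries), 129 without a filter on low counts, 90 after thinning, 14 with at least 20 cells per class and 0 without the library block (edgeR, 170 genes at an unadjusted p under 0.05). Chosen after seeing the data were the cell filter of the study's later experiment (13 calls), all Klrg1-positive against all Klrg1-negative cells of the CD8 gate, with 6 libraries and none of the exclusions in either class (163), leaving out cells with Tyrobp or Fcer1g (2) and leaving out members with at least 50 UMIs of Ccl1 or Il13 (111, with 35 of the 36 kept). Leaving out each library gave 12 to 40. The 20 calls against Gzmk-high cells became 12 with DESeq2, 11 with at least 2 Klrg1 UMIs, 56 without the filter, 9 after thinning, 7 with at least 20 cells, 0 without the block (192 genes at an unadjusted p under 0.05), 3 with the later filter and 3 without cells with Tyrobp or Fcer1g. Leaving out each library gave 3 to 20. DESeq2 called 29 genes in the first comparison. No called gene reversed its sign in the settings that tested it. The settings share members with the fits that chose these genes, so this is description only.

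With at least 10 UMIs in place of 50, 594 genes passed a log2 ratio of 1 for day 26 against day 12, 551 for day 12 against day 5 and 641 for the day 12 treatments. After thinning these were 91, 98 and 60, and with TMM factors 61 for the treatments. Ccl1 for day 12 against day 5 turned to 1.44 without the members high in Ccl1 or Il13. The cause of these changes was not tested. Of the 4 libraries tested, PD1d/IL-33 ACT had the fewest member UMIs, 39126 in 10 cells.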

Other observations

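Among cells outside the CD8 gate, Klrg1 was found in 59.3% of 381 CD4 cells with Foxp3 and in 13.8% of 749 CD4 cells without it. In NK cells of all libraries it was found in 28.6% of 1756. Of the genes of KLRG1 ligands, Cdh1 had 1267 UMIs in 847 filtered cells, Cdh2 had 1 UMI and Cdh4 had 0. Since CD45+ cells were sorted, tumor cells were mostly not sampled.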
